A study of Mus musculus with 20 samples.

Results

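Multipotent progenitors (MPP) were compared with long-term haematopoietic stem cells (LT-HSC) within the animals labelled AhR-KO, that is, knocked out for the ligand-sensing transcription factor AHR, which binds aryl hydrocarbons. The comparison used all 10 libraries with that genotype label, 5 of MPP and 5 of LT-HSC, of the 20 in the series, and every gene of the joined count tables. The other 10 libraries, 5 of MPP and 5 of LT-HSC from C57BL/6 wild-type (WT) mice, entered only the test of whether the difference departs from that in WT. Both populations were sorted from bone marrow of untreated mice of 8 to 12 weeks by flow cytometry, and RNA was measured by sequencing of poly(A) RNA with a kit that does not keep the strand. The labels give neither the knockout allele, the background strain of the knockout, the surface proteins of the sort, a batch, a litter, nor whether animals were pooled, so that differences in such matters cannot be told apart from the groups. Nothing says that the 5 libraries of a group came from separate animals, and p-values then measure the spread between these libraries, which may be technical in part.

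LT-HSC are rare, mostly resting cells that renew themselves and sustain all blood lineages for life. MPP are their progeny, which keep many lineages open, renew little and divide often. In mouse bone marrow the step from one to the other is commonly followed on the cell surface, where SLAMF1 and PROCR mark stem cells and CD48 and FLT3 mark progenitors. The series takes its interest from the kinase Aurora A and the passage from G2 into mitosis, which makes cell cycle genes one of the questions put to this comparison.

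The AhR-KO LT-HSC libraries held 16133048 to 21484304 counts and the AhR-KO MPP libraries 13712668 to 20738468. The stem cell libraries numbered 2 and 3 stood apart before any comparison was made. Their summed neutrophil granule genes stood at 3315 and 4083 CPM, that is, counts scaled to the size of each library, against 709 to 793 CPM in LT-HSC 1, 4 and 7 and 1004 to 1996 CPM in the MPP libraries. Of the tested members, 18 of 19 neutrophil, 18 of 18 primary granule, 22 of 23 erythroid and 9 of 10 eosinophil genes were higher in both of these libraries than in each of LT-HSC 1, 4 and 7. The same held for 30 of 77 nuclear genes of oxidative phosphorylation, 17 of 83 of mitosis and 2 of 46 interferon-stimulated genes. The share over all tested genes was not counted, so that these counts are descriptions. LT-HSC 3 also held bone and stromal transcripts at 4651 summed CPM, against 81.3 to 174 CPM in the other 4. The MPP libraries carried immunoglobulin transcripts at 0.35 to 1.5% of their counts, against 0.000819 to 0.368% in LT-HSC. In sorted bulk samples such as these, fewer cells of a type and less RNA per cell cannot be told apart. Results are given with all 10 libraries, and values without LT-HSC 2 and 3 stand beside those that move most. These 2 libraries were left out because they carry mature blood cell transcripts. For genes of mature blood cells, a larger rise in MPP without them was therefore largely fixed in advance, and those values are descriptions.

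Transcripts of Ahr itself (chromosome 12, 35497974 to 35535038 on GRCm38, minus strand) were present in every AhR-KO library, at 30.2, 22, 23.5, 18.8 and 25 CPM in LT-HSC 1, 2, 3, 4 and 7 and at 17, 9.8, 14.4, 19.1 and 19.1 CPM in MPP 1 to 5. WT libraries stood at 20.8 to 36.6 CPM in LT-HSC and 5.8 to 14.2 CPM in MPP, so that gene-level counts do not tell the genotypes apart, and an allele that loses part of the gene would not be seen in them. The genotype names below are those of the labels. Within AhR-KO, Ahr was lower in MPP with a log2 fold change of -0.59 ± 0.19 (SE) and an adjusted p = 0.0336 in edgeR, with 2 MPP libraries just inside the LT-HSC range. Without LT-HSC 2 and 3 the value was -0.64 and did not pass (adjusted p = 0.0721).

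Of 16206 genes tested, 4903 were called at an adjusted p under 0.05 in edgeR's quasi-likelihood test, which is 30.3% of them. Of these, 2391 were higher in MPP (14.8% of the genes tested) and 2512 were lower (15.5%). A fold change of at least 2 was reached by 1721 called genes (10.6%), 811 higher and 910 lower in MPP. The median log2 fold change over all tested genes was -0.014, so that the scaling left the bulk of genes centred. Without LT-HSC 2 and 3, 4245 of 16943 genes were called (25.1%), 2210 higher and 2035 lower. Both fits called 3673 genes, each in the same direction, which is 74.9% of the first set and 86.5% of the second. The second fit called 572 genes that the first did not, of which 468 were higher in MPP. The counts of gene lists below are to be read against these shares. With all 10 libraries, 21.7% of red cell, 10.5% of late neutrophil, 14.3% of monocyte, 30.0% of eosinophil and 21.4% of stromal genes were called.

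Genes of surface proteins by which these populations are commonly sorted differed in the way the labels name the cells. Slamf1, the SLAM family receptor CD150 of stem cells (chromosome 1, 171767127 to 171801184), stood at 53.4, 45.3, 44.7, 55.6 and 59.2 CPM in LT-HSC and at 4.54, 5.98, 1.1, 1.52 and 11.2 CPM in MPP. Every MPP library lay below every LT-HSC library, and MPP 5 was the highest of its group. The log2 fold change was -3.41 ± 0.52 (SE, adjusted p = 0.000809). Procr, the protein C receptor of stem cells, fell from 46.8 to 67.7 CPM in LT-HSC to 18.7 to 32.3 CPM in MPP (log2 fold change -1.25 ± 0.17, adjusted p = 0.000182). Kit, the stem cell factor receptor, was the most abundant of them in CPM and also fell, from 1492 to 1926 CPM to 731 to 1299 CPM (log2 fold change -0.87 ± 0.14, adjusted p = 0.000637). Ly6a, the Sca-1 antigen, stood at 111, 110, 72.6, 126 and 92.8 CPM in LT-HSC and at 68.1, 56.6, 61.5, 84.5 and 81.4 CPM in MPP. The groups overlapped, and the difference of -0.54 ± 0.15 passed the test (adjusted p = 0.0178).

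In the other direction, Flt3, the FLT3 ligand receptor (chromosome 5, 147330741 to 147400489), stood at 53, 62.8, 66.2, 55.4 and 40.3 CPM in LT-HSC and at 372, 401, 464, 329 and 265 CPM in MPP. The groups were far apart, the transcript was not absent from LT-HSC, and MPP 5 was again the MPP library nearest to the stem cells (log2 fold change 2.72 ± 0.16, adjusted p = 1e-06). Cd48, an SLAM family ligand (chromosome 1, 171682009 to 171705258), stood at 13.5, 36.3, 44.3, 7.32 and 2.37 CPM in LT-HSC and at 196, 236, 202, 237 and 150 CPM in MPP. LT-HSC 2 and 3 held the most of it among the stem cells, and the log2 fold change of 3.30 ± 0.70 (adjusted p = 0.00737) became 4.70 without them (adjusted p = 0.000184). Cd34, a sialomucin of progenitors, rose from 301 to 414 CPM to 931 to 1114 CPM (log2 fold change 1.48 ± 0.09, adjusted p = 7.61e-07). Cd244, another SLAM receptor, rose by 2.98 ± 0.26 and Esam, an endothelial adhesion protein also found on stem cells, fell by 1.99 ± 0.16 on the log2 scale. Of 19 surface genes tested, 6 were higher and 8 lower in MPP.

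**Figure D1:**
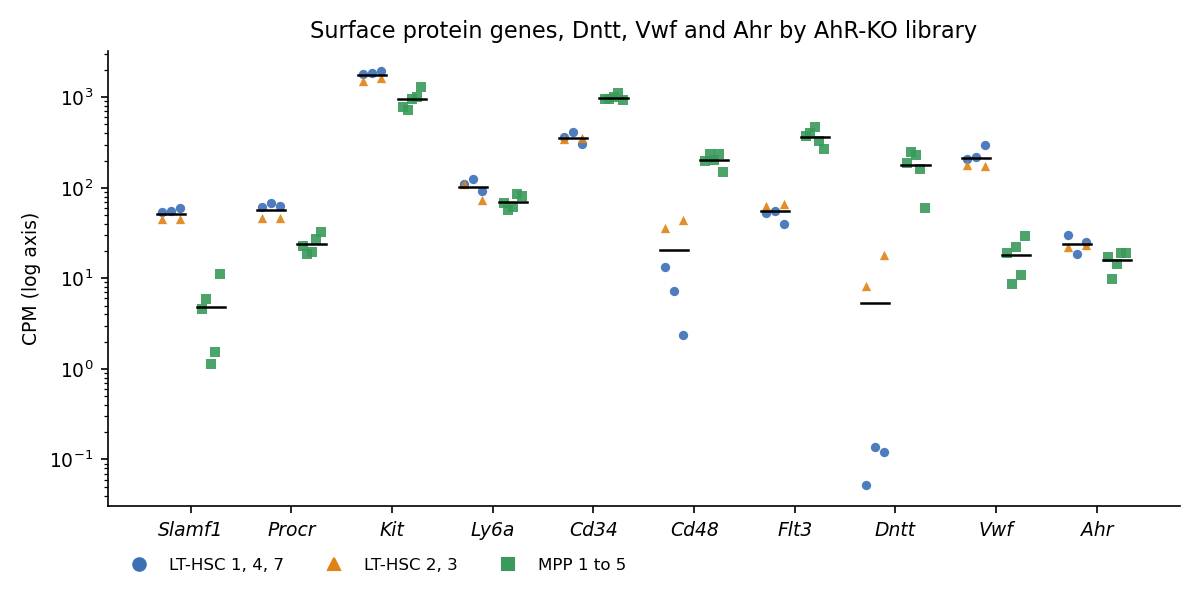
Expression in CPM on a log axis of genes for surface proteins, of Dntt, Vwf and Ahr in the 10 AhR-KO libraries, each point 1 library and each black line the mean of a group. LT-HSC 2 and 3 (orange triangles) lie above the other stem cell libraries for Cd48 and Dntt, and Ahr and Ly6a are the plotted genes whose groups overlap.

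Genes of long-term stem cells were lower in MPP almost without exception. Of 36 tested, 35 fell and none rose, with a median log2 fold change of -2.01, and the sum over the list was 5883 to 7179 CPM in LT-HSC and 2107 to 2956 CPM in MPP. Socs2, a brake on cytokine signalling, stood at 53.5, 42.8, 46.5, 47.2 and 50.3 CPM in LT-HSC and at 7.76, 5.91, 8.51, 6.65 and 7.04 CPM in MPP. The 2 groups did not approach each other (log2 fold change -2.74 ± 0.13, adjusted p = 2.03e-07). Mllt3, a chromatin reader known to maintain stem cells, fell by 2.49 ± 0.12, and Pdzk1ip1, a membrane protein with restricted expression in stem cells, by 2.36 ± 0.12. Ndn, the growth suppressor necdin, fell by 2.98 ± 0.15, and Mycn, the MYC family member of stem cells, by 2.04 ± 0.12. Vwf, the von Willebrand factor of platelet-biased stem cells (chromosome 6, 125546774 to 125686679), stood at 210, 178, 175, 217 and 296 CPM in LT-HSC and at 19.2, 8.65, 22, 11 and 29.7 CPM in MPP. Its log2 fold change was -3.57 ± 0.32 (adjusted p = 3.08e-05).

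Among the 12 genes with the largest falls under the naming rule, Evc2, a ciliary protein of Hedgehog signalling (chromosome 5, 37338499 to 37425055), stood at 19.2, 15.1, 11.3, 15.7 and 30.3 CPM in LT-HSC and had 3 counts in all 5 MPP libraries together, against 1719 in LT-HSC. The ratio of the 2 sums per total count was 528, with an exact 95% interval for counting error of 181 to 2560. Podxl, the sialomucin podocalyxin, stood at 27.7 to 38.7 CPM in LT-HSC and 0.559 to 3.08 CPM in MPP (log2 fold change -4.21 ± 0.32). Kdr, a receptor of vascular endothelial growth factor, fell by 4.13 ± 0.78 and Efna1, an ephrin ligand, by 4.84 ± 0.72. Sfrp1, a secreted Wnt inhibitor, fell by 4.15 ± 0.82 and Ocln, the tight junction protein occludin, by 4.12 ± 0.74. Scrn1, Cpne8, Plcl1, Plk2 and Sult1a1, a sulfotransferase, fell by between 4.11 and 4.55 on this scale. Col1a2, a chain of type I collagen, was carried by 1 library. It stood at 1715 CPM in LT-HSC 3 and at 17.3 to 23.5 CPM in the other 4, and its log2 fold change of -6.19 was -1.92 without LT-HSC 2 and 3 (adjusted p = 0.000542), with MPP at 3.21 to 7.35 CPM.

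Genes of multipotent progenitors rose. Of 20 tested, 15 were higher and none lower in MPP, with a median of 1.98, and without LT-HSC 2 and 3 the count was 17 and the median 2.74. The list summed to 1842 to 2809 CPM in LT-HSC and 5184 to 7089 CPM in MPP, with MPP 5 the lowest of its group. Tespa1, a protein of T cell receptor signalling, stood at 1.6, 2.57, 1.5, 2.18 and 1.82 CPM in LT-HSC and at 61.3, 43.7, 43.3, 67.6 and 57.9 CPM in MPP. No library of one group came near the other (log2 fold change 4.81 ± 0.20, adjusted p = 1.2e-07). Satb1, a chromatin organizer of lymphoid progenitors, rose by 2.94 ± 0.23.

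Among the 12 largest rises, Sema3d, a secreted semaphorin (chromosome 5, 12383385 to 12588948), stood at 0.0517, 0, 0.802, 0 and 0.0608 CPM in LT-HSC and at 16.9, 10, 12.1, 11.9 and 6.46 CPM in MPP. Its log2 fold change was 5.95 ± 0.80 (adjusted p = 0.000215), and 8.09 without LT-HSC 2 and 3. Slc16a11, a monocarboxylate transporter of the solute carrier family, rose by 5.21 ± 0.34, from 0.608 to 1.71 CPM to 23.1 to 57.3 CPM. Rab44, a large RAB GTPase of granulocytes and mast cells, rose by 4.58 ± 0.70, and Adgrg3, an adhesion receptor of granulocytes, by 3.82 ± 0.35, with values of 6.07 and 4.47 without LT-HSC 2 and 3. Drc7, Bzrap1, Kcng1, a potassium channel subunit, and Chdh, the choline dehydrogenase, rose by 3.79 to 4.99. The values were 6.92 for Drc7, 5.62 for Bzrap1, 9.30 for Kcng1 and 4.97 for Chdh without LT-HSC 2 and 3. Prg3, an eosinophil granule protein, stood at 0.517, 19.8, 2.62, 0.0463 and 0.0608 CPM in LT-HSC against 47.6 to 129 CPM in MPP. LT-HSC 2 stood far above the other stem cell libraries, and the log2 fold change was 4.01 ± 1.21 with all libraries and 8.43 without LT-HSC 2 and 3.

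Genes of mitosis and of its entry were higher in MPP as a group, by modest amounts. Of 83 tested, 68 rose and none fell, with a median log2 fold change of 0.66, and without LT-HSC 2 and 3, 63 rose with a median of 0.74. The summed list was 6978 to 8682 CPM in LT-HSC and 10440 to 12190 CPM in MPP, and the groups did not overlap. Their promoters are known for CCAAT boxes, which bind NF-Y, and for the cell cycle homology region (CHR), which binds the DREAM and MuvB complexes. The 150 bases before the RefSeq start on GRCm38.p6 are shown for 4 members that the naming rule fixed, since the series turns on Aurora A and mitotic entry. They lie at chr2:172370571-172370720, minus strand for Aurka, at chr13:100786487-100786636, minus strand for Ccnb1, at chr10:69352913-69353062, minus strand for Cdk1, and at chr7:122159285-122159434, plus strand for Plk1. Each is written in its gene's direction, with capitals where CCAAT or, read from the other strand, ATTGG occurs. Capitals also mark the CHR letters, which were TTTGAA, its reverse complement and the palindrome TTTAAA.
Aurka: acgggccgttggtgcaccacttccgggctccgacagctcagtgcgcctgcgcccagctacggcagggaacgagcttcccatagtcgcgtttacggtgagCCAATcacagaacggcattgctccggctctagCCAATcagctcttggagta
Ccnb1: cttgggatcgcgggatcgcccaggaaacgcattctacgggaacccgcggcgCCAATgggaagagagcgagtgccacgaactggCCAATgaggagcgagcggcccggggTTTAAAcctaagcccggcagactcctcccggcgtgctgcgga
Cdk1: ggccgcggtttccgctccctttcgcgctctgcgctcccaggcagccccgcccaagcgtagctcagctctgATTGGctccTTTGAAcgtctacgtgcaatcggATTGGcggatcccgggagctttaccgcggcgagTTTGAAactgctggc
Plk1: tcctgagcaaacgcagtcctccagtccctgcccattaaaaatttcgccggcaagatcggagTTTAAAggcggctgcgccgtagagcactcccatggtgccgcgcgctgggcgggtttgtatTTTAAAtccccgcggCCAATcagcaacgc
All 4 stretches hold CCAAT, 2 copies in Aurka, Ccnb1 and Cdk1 and 1 in Plk1. The CHR letters occur once in Ccnb1, 2 times in Cdk1 and Plk1, and not in the stretch of Aurka. Of other mitotic genes named below, Kif20b and Tacc3 had neither CCAAT nor CHR letters in the same 150 bases, and Ect2 had both.

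Windows from 250 bases before to 50 after the start were found for 67 of the 83 genes, 71 windows in all. CCAAT on either strand was in 51 of these 71 (71.8%) and in 37.4% of all 32851 windows, the CHR letters in 54 (76.1%) against 27.6%, and both in 62.0% against 10.7%. In the 31 windows of stem cell genes, which moved the other way, the shares were 32.3% for CCAAT, 35.5% for CHR and 16.1% for both. In the windows of all tested genes they were 37.8%, 19.8% and 7.85%. Letters that match a motif describe the sequence and do not show that a factor binds there.

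Aurka, which encodes Aurora A, the kinase of centrosomes and mitotic entry (chromosome 2, 172356190 to 172370535), stood at 55.9, 69.4, 75.7, 73.0 and 57.3 CPM in LT-HSC and at 86.7, 107, 128, 95.7 and 106 CPM in MPP. Every MPP library lay above every LT-HSC library (log2 fold change 0.66 ± 0.12, adjusted p = 0.00134, and 0.75 without LT-HSC 2 and 3, adjusted p = 0.00369). Ccnb1, cyclin B1 of the mitotic kinase (chromosome 13, 100778650 to 100786570), stood at 109, 161, 147, 138 and 113 CPM in LT-HSC and at 170, 216, 237, 191 and 233 CPM in MPP. It too was higher in all MPP libraries (0.65 ± 0.13, adjusted p = 0.00203). Cdk1, the mitotic kinase itself (chromosome 10, 69335146 to 69352938), stood at 85.2, 106, 96.2, 105 and 81.5 CPM in LT-HSC and at 158, 173, 171, 169 and 150 CPM in MPP, with little spread in either group (0.79 ± 0.09, adjusted p = 5.47e-05). Plk1, the polo-like kinase that Aurora A activates (chromosome 7, 122159439 to 122169873), stood at 53.5, 86.4, 71.9, 77.2 and 52.1 CPM in LT-HSC and at 79.9, 89.6, 112, 84.9 and 95 CPM in MPP. Here the groups overlapped, and the difference was the smallest of the 4 (0.43 ± 0.15, adjusted p = 0.0402).

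The mitotic genes with the smallest p were others. Pkmyt1, the kinase that holds CDK1 inactive, stood at 17.9, 20.9, 21.2, 26.1 and 20 CPM in LT-HSC and at 85.3, 65.0, 61.6, 81.9 and 69.3 CPM in MPP, a clear separation (1.77 ± 0.13, adjusted p = 3.22e-06). Kif20b, a kinesin of cytokinesis, rose by 1.38 ± 0.10, Ect2, the activator of RhoA in cytokinesis, by 1.24 ± 0.11, and Tacc3, a spindle protein that Aurora A phosphorylates, by 0.99 ± 0.08.

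Genes of DNA replication rose less. Of 60 tested, 33 rose and none fell, with a median of 0.38, and the list summed to 7809 to 9673 CPM in LT-HSC and 9292 to 11650 CPM in MPP, with MPP 2 inside the LT-HSC range. Cdc7, the kinase that fires replication origins, stood at 26.7 to 34.9 CPM in LT-HSC and at 68.4 to 108 CPM in MPP (1.58 ± 0.14, adjusted p = 1.15e-05). Gins1, a subunit of the replicative helicase, rose by 0.90 ± 0.13, Tyms, thymidylate synthase, by 0.60 ± 0.08, and Tipin, of the replication fork, by 0.51 ± 0.07. E2F letters (TTTGGCGC, TTTCCCGC, TTTCGCGC or TTTGCCGC, either strand) were in 18 of 58 promoter windows of this list (31.0%), in 11.3% of the mitotic windows, in 2.26% of all windows and in 3.86% of those of tested genes.

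The regulators of G1 went both ways, with 9 of 25 higher, 4 lower and a median of 0.14. Cdkn1c, the inhibitor p57 of resting stem cells, fell by 2.99 ± 0.35, from 21.2 to 32.7 CPM to 1.4 to 5.87 CPM. Cdkn1a, the inhibitor p21, rose by 2.15 ± 0.18, from 3.93, 5.03, 6.1, 4.22 and 3.83 CPM in LT-HSC to 23.3, 25.1, 16.8, 18.6 and 18.8 CPM in MPP. Cdk6, a kinase of G1 that drives exit from rest, rose by 0.74 ± 0.11, and Ccnd2, cyclin D2, fell by 0.91 ± 0.10. Thus the 2 inhibitors of the same family moved in opposite directions, and so did a cyclin and a kinase that pair with each other.

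**Figure D2:**
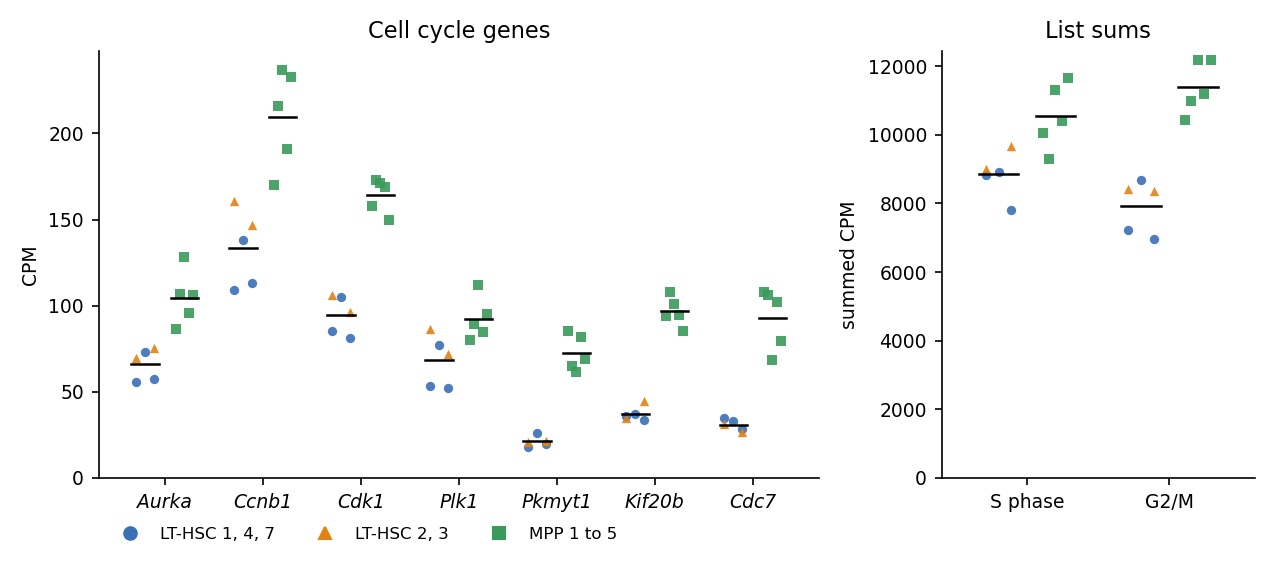
Left, CPM of 7 cell cycle genes, and right, summed CPM of the lists for DNA replication (S phase) and mitosis (G2/M), both on linear axes from 0, each point 1 AhR-KO library and each line a group mean. MPP lie above LT-HSC for all plotted genes except Plk1, where the highest LT-HSC library at 86.4 CPM overlaps the lowest MPP libraries.

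Transcription factors of the stem cell and of the erythroid and megakaryocytic lineages fell together. Of 16 tested, 11 were lower and none higher in MPP, with a median of -0.69. Gfi1b, a repressor of these lineages, stood at 154 to 184 CPM in LT-HSC and 53 to 73.0 CPM in MPP (-1.42 ± 0.09, adjusted p = 1.44e-06). Gata2 fell by 1.29 ± 0.13, Gata3 by 1.46 ± 0.15, and Nfe2, of platelet formation, by 0.60 ± 0.06. Among Hox genes and their partners, 3 of 16 rose and 6 fell. Meis1, a partner of HOXA9, fell by 0.94 ± 0.11 and Pbx3 by 1.5 ± 0.22, while Pbx4 rose by 1.72 ± 0.19.

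Of 16 myeloid factors, 4 rose and 1 fell with all libraries, and 11 rose without LT-HSC 2 and 3. With all libraries 31.2% were called, near the 30.3% over all tested genes. Cebpa, which commits cells to granulocytes and monocytes, stood at 5.94, 6.69, 10.3, 5.19 and 2.92 CPM in LT-HSC and at 29.2, 30.2, 29.3, 29.6 and 20.9 CPM in MPP. The MPP libraries were alike except for MPP 5 (2.16 ± 0.27, adjusted p = 0.0001). Gfi1, a factor of neutrophils and lymphocytes, rose by 2.31 ± 0.29 and Myb by 0.43 ± 0.08, and Runx1 fell by 0.34 ± 0.06.

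Of 22 early lymphoid genes tested, 10 rose in MPP, 3 fell and 9 did not pass, with a median of 1.64. Dntt, the terminal transferase of immature lymphocytes (chromosome 19, 41029275 to 41059525), stood at 0.0517, 8.2, 18.1, 0.139 and 0.122 CPM in LT-HSC and at 186, 249, 231, 161 and 59.6 CPM in MPP. It was near 0 in LT-HSC 1, 4 and 7 but not in LT-HSC 2 and 3, and its log2 fold change was 5.06 ± 1.23 (adjusted p = 0.0153), or 10.63 without these (adjusted p = 2.66e-05). Lck, a kinase of T cells, rose by 1.41 ± 0.16 and Il12a, a cytokine subunit, by 1.87 ± 0.22. Ltb, lymphotoxin beta, fell by 1.1 ± 0.13.

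Megakaryocyte and platelet genes fell, 16 of 21 tested, with 1 higher and a median of -1.55. The list was not raised in LT-HSC 2 and 3, at 2964 and 2827 summed CPM in these and 3246 to 3561 CPM in the other stem cells, against 1116 to 1682 CPM in MPP. Gng11 fell by 2.08 ± 0.14 and Gp9, a subunit of the platelet receptor for von Willebrand factor, by 1.82 ± 0.18.

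The median over genes of red cells changed sign with the libraries used. The libraries left out were the ones high in these genes, so that this change was largely fixed in advance. With all 10, 5 of 23 were lower in MPP, none higher, and the median was -1.10. Without LT-HSC 2 and 3, 3 were lower and 4 higher, with a median of 1.06. The sum over the list did not turn, at 2449 to 2690 CPM in LT-HSC 1, 4 and 7 against 1305 to 2067 CPM in MPP. Globin RNA varied most, with Hba-a1, an alpha globin, at 69.7, 661, 812, 33.7 and 6.74 CPM in LT-HSC and at 119, 105, 137, 25.5 and 62.7 CPM in MPP. The 2 stem cell libraries exceeded every MPP library, while the other 3 lay within or below the MPP range. The falls of Car2 (carbonic anhydrase 2, -1.33 ± 0.12) and Epor (the erythropoietin receptor, -1.45 ± 0.19) were also called without these libraries, at -1.33 and -1.20. Hba-a1 and the genes named next for their abundance were chosen after their values were seen.

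For genes of granulocytes and monocytes, the number called, and for late neutrophil genes also the sign of the median, depended on LT-HSC 2 and 3. Those libraries were left out for carrying such transcripts, so that the larger rises without them give no separate support for a rise in MPP. For primary granule genes the count was 6 of 18 higher with a median of 1.62, and 16 of 18 with a median of 3.36 without them. Mpo, myeloperoxidase, stood at 309, 1458, 1319, 94.2 and 16.3 CPM in LT-HSC and at 4073, 5281, 7884, 2262 and 3083 CPM in MPP, and Elane, neutrophil elastase, ranged from 4.25 to 528 CPM and from 326 to 1998 CPM. Mpo varied widely among LT-HSC 1, 4 and 7 as well, and all 5 stem cell libraries lay below the MPP libraries. Prss57, a granule serine protease, rose by 2.41 ± 0.34 (3.05 without LT-HSC 2 and 3) and Nkg7, a granule protein of killer cells and granulocytes, by 2.36 ± 0.22.

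For late neutrophil granule genes, 2 of 19 were higher with a median of -0.12, and 13 of 19 with a median of 3.25 without LT-HSC 2 and 3. Ngp, neutrophilic granule protein, stood at 1.65, 252, 415, 1.11 and 1.94 CPM in LT-HSC and at 76.0, 110, 193, 23.9 and 147 CPM in MPP. S100a9, a calcium-binding protein of mature neutrophils, ran from 2.31 to 248 CPM in LT-HSC and from 41.4 to 164 CPM in MPP. For both genes LT-HSC 2 and 3 lay above all MPP libraries and LT-HSC 1, 4 and 7 below them. For monocyte and macrophage genes the counts were 3 of 21 and 17 of 22, with medians of 0.82 and 1.84. C1qb, a complement subunit of macrophages, passed the test with all libraries (adjusted p = 0.0366) although its groups overlapped.

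B cell and plasma cell genes were among those with the largest differences. With all libraries 9 of 22 were higher, 1 lower and the median was 2.39. Without LT-HSC 2 and 3, 15 of 23 were higher and the median was 4.17. Ighm, the heavy chain of immunoglobulin M, stood at 15.3, 797, 148, 6.21 and 8.02 CPM in LT-HSC and at 3927, 1504, 2731, 5339 and 6887 CPM in MPP. Vpreb1 and Vpreb2, of the surrogate light chain of B cell precursors, rose by 2.48 ± 0.39 and 3.35 ± 0.45, and Igll1, its other part, by 3.84 ± 0.89. The value for Igll1 was 7.39 and that for Vpreb1 3.14 without LT-HSC 2 and 3. Of 53 immunoglobulin segments tested, 29 were higher and none lower. The part that rearranged B or plasma cell RNA in the MPP libraries has in these results was not tested.

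Eosinophil genes showed the largest median of all lists, 2.99 with 3 of 10 higher, and 6.98 with 9 of 10 higher without LT-HSC 2 and 3. Prg2, the major basic protein of eosinophils, stood at 0.827, 248, 54.4, 0.371 and 2.73 CPM in LT-HSC and at 1677, 1333, 1005, 1008 and 2284 CPM in MPP. The list summed to 6.07 to 9.15 CPM in LT-HSC 1, 4 and 7 and to 1408 to 3647 CPM in MPP. Of mast cell and basophil genes, 2 of 11 were higher and 1 lower (27.3% called, against 30.3% of all tested genes). Among them were Cpa3, a mast cell protease (2.55 ± 0.38), and Hdc, which makes histamine (2.89 ± 0.82). The median was 0.63, and without LT-HSC 2 and 3, 5 of 13 were higher with a median of 1.66, and Hdc was at 4.57. T and NK cell genes rose in 4 of 20 and fell in 1 with all libraries. The share called in either direction was thus below the 30.3% of all tested genes. Without LT-HSC 2 and 3, 10 of 20 rose and none fell. Trbc1, a constant region of the T cell receptor, stood at 5.76 to 10.1 CPM in MPP against 0.243 to 3.32 CPM in LT-HSC. The part of mature cells in the MPP libraries in these rises was not tested.

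Stromal genes had a median of -0.78 over 14 tested genes with 2 higher and 1 lower, and 0.39 without LT-HSC 2 and 3. Col1a1, the other chain of type I collagen, stood at 2066 CPM in LT-HSC 3 and at 0.425 to 3.07 CPM in the other 4. Pdgfrb, the receptor of platelet-derived growth factor on mesenchymal cells, rose regardless, from 13.2 to 26.1 CPM to 55.3 to 97.3 CPM (1.83 ± 0.19, adjusted p = 3.28e-05). Endothelial genes, several of which stem cells share, fell in 10 of 16 and rose in 2, with a median of -0.92. Tek, the angiopoietin receptor TIE2, fell by 2.22 ± 0.23 and Sox18 by 3.71 ± 0.38.

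**Figure D3:**
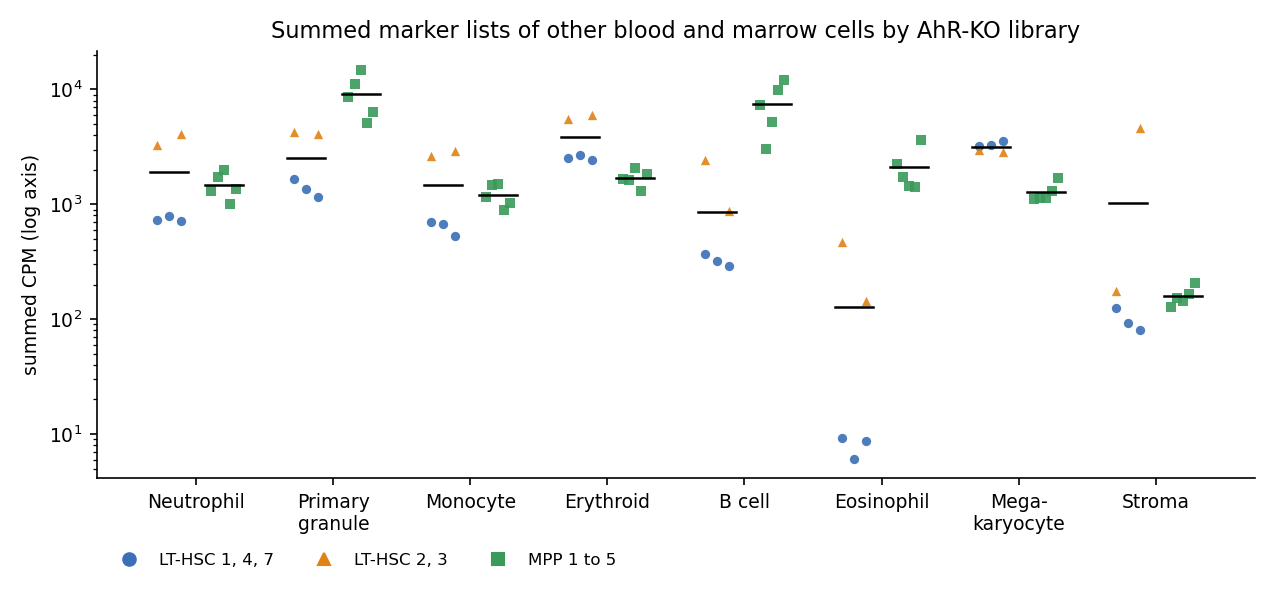
Summed CPM on a log axis of the lists of mature blood and marrow cells in the 10 AhR-KO libraries, each point 1 library and each line a group mean. In the plot LT-HSC 2 and 3 (orange triangles) exceed LT-HSC 1, 4 and 7 in every plotted list but that of megakaryocytes. In the neutrophil, monocyte and erythroid lists LT-HSC 2 and 3 also exceed all MPP libraries. In the erythroid and megakaryocyte lists all LT-HSC libraries do so.

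Partners and targets of AHR differed in both directions. Of 13 pathway genes, 1 was higher and 5 lower, and none and 4 without LT-HSC 2 and 3. With all libraries 46.2% were called, against 30.3% of all tested genes, and the median was -0.17. Arnt, the partner with which AHR binds DNA, stood at 77.0, 65.6, 88.7, 86.2 and 84.0 CPM in LT-HSC and at 57.7, 57.3, 66.8, 47.7 and 59.9 CPM in MPP, with a slight overlap (-0.47 ± 0.11, adjusted p = 0.00578). The co-activator Ncoa2 fell by 0.71 ± 0.14. Of 9 target genes tested, 2 were higher and 1 lower (33.3% called). Nqo1, a quinone reductase, fell by 1.32 ± 0.16, from 15.4 to 22 CPM to 6.37 to 8.57 CPM. Lpcat2 rose by 1.62 ± 0.23. Tiparp, an AHR-induced repressor of AHR, rose by 0.38 ± 0.11 (adjusted p = 0.0238), and not past the threshold without LT-HSC 2 and 3 (adjusted p = 0.0938). The core letters GCGTG of the AHR site, on either strand, were in 40.3% of promoter windows of called genes at least 2-fold higher in MPP, in 44.1% of those at least 2-fold lower, in 49.1% of windows of all tested genes and in 32.4% of all windows.

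Cytokine receptors changed in both directions, 10 of 34 higher and 9 lower. Csf3r, the receptor of granulocyte colony-stimulating factor, rose by 1.28 ± 0.09, from 112 to 141 CPM to 286 to 354 CPM. Il1r1, the interleukin-1 receptor, rose by 2.56 ± 0.23. Genes of TGF-beta and BMP signalling fell in 12 of 30 and rose in none, with a median of -0.43, and without LT-HSC 2 and 3, 11 fell and 2 rose. Tgfbr3, the co-receptor betaglycan, stood at 159, 139, 120, 143 and 169 CPM in LT-HSC and at 24.1, 21.5, 29.7, 21.0 and 59.9 CPM in MPP, with MPP 5 the highest of its group (-2.22 ± 0.28, adjusted p = 0.00015). Inhba, the activin A subunit, had 163 counts over the LT-HSC libraries and none over the MPP libraries, which is at least 50.1-fold lower against a floor of 3 counts over the group. Eng, endoglin, fell by 0.88 ± 0.13 and Gdf3 by 1.46 ± 0.13.

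Adhesion genes were mixed, with 7 of 31 higher and 11 lower, among them Jam3, a junctional adhesion molecule of stem cells (-2.50 ± 0.23), and the tetraspanin Cd9 (-0.94 ± 0.09). Egr1, an immediate early factor linked to stem cell rest, stood at 49.8, 52.5, 58.0, 117 and 92.2 CPM in LT-HSC and at 4.4, 6.63, 9.07, 13.3 and 15.7 CPM in MPP. It varied about 2-fold within LT-HSC and fell by 2.90 ± 0.37 (adjusted p = 0.00018). In all, 1 of 21 immediate early genes rose and 4 fell, 23.8% called against 30.3% of all tested genes. Of 24 p53 targets, 3 rose, among them Cdkn1a, and 6 fell, among them Ccng1 (-0.50 ± 0.09) and Sesn2 (-0.92 ± 0.16), and 5 rose and 5 fell without LT-HSC 2 and 3. Imprinted growth regulators fell in 7 of 13 and rose in 1 (none without LT-HSC 2 and 3), with a median of -1.17. Grb10, an adaptor that dampens growth factor receptors, stood at 242, 195, 215, 214 and 278 CPM in LT-HSC and at 31.2, 29.2, 36.1, 33.3 and 62.3 CPM in MPP (-2.57 ± 0.20), and Phlda2 fell by 2.04 ± 0.17.

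Of 46 interferon-stimulated genes, 15 fell and 4 rose, with a median of -0.18. Ifih1, the RNA sensor MDA5, stood at 77.0, 66.7, 62.9, 75.4 and 74.7 CPM in LT-HSC and at 27.1, 29.8, 36.7, 42.5 and 32 CPM in MPP, a separation of the groups (-1.08 ± 0.12, adjusted p = 6.01e-05). Gbp2 fell by 0.95 ± 0.15 and Igtp, another interferon-induced GTPase, by 0.84 ± 0.12. Of 21 genes of antigen presentation, 4 rose and 6 fell. B2m, the invariant chain of class I molecules, fell by 0.41 ± 0.08, and H2-Ob, a class II modulator, rose by 1.93 ± 0.16.

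The medians of the metabolic lists were small, while single members moved further. The share called was 42.3% for cholesterol synthesis and 51.4% for glycolysis and hypoxia, against 30.3% of all tested genes. Cholesterol synthesis fell in 11 of 26 genes and rose in none, with a median of -0.36, and Sqle, squalene epoxidase, stood at 176, 157, 145, 162 and 101 CPM in LT-HSC and at 76.3, 98.1, 85.9, 75.8 and 112 CPM in MPP. LT-HSC 7 and MPP 5 overlapped (-0.73 ± 0.15, adjusted p = 0.00303). Glycolysis and hypoxia genes fell in 15 of 35 and rose in 3, with Slc2a3, a glucose transporter, down by 1.09 ± 0.13 and Hk3, the hexokinase of myeloid cells, up by 1.86 ± 0.21. Pdk4, which closes pyruvate off from mitochondria, had 264 counts in LT-HSC and 2 in MPP, a ratio of 122 with an exact 95% interval for counting error of 33.4 to 1010.

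Of 77 nuclear genes of oxidative phosphorylation, 12 rose and none fell, a share of risen genes near the 14.8% over all tested genes, with a median of 0.18. In the fit without LT-HSC 2 and 3, 6 rose. Ndufa4, at the smallest p, rose by 1.02 ± 0.14. Proteasome subunits rose in 12 of 31 and fell in none, with a median of 0.15. No gene of the mitochondrial genome was called among 13, with mt-Nd5 at the smallest p (0.16 ± 0.12, adjusted p = 0.351). Ribosomal protein genes had 1 of 79 higher and 2 lower. Of 43 ribosome biogenesis genes, 8 were higher and 2 lower, led by Nop56 (0.74 ± 0.08). Of these 43 genes 23.3% were called, below the 30.3% over all tested genes. Autophagy and lysosome genes fell in 11 of 40 and rose in 4 (10 and 7 without LT-HSC 2 and 3), with Gabarapl1 down by 0.78 ± 0.08. Gstt1, a glutathione transferase, fell by 2.66 ± 0.26 and Mgst2, a microsomal one, rose by 2.26 ± 0.34.

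**Figure D4:**
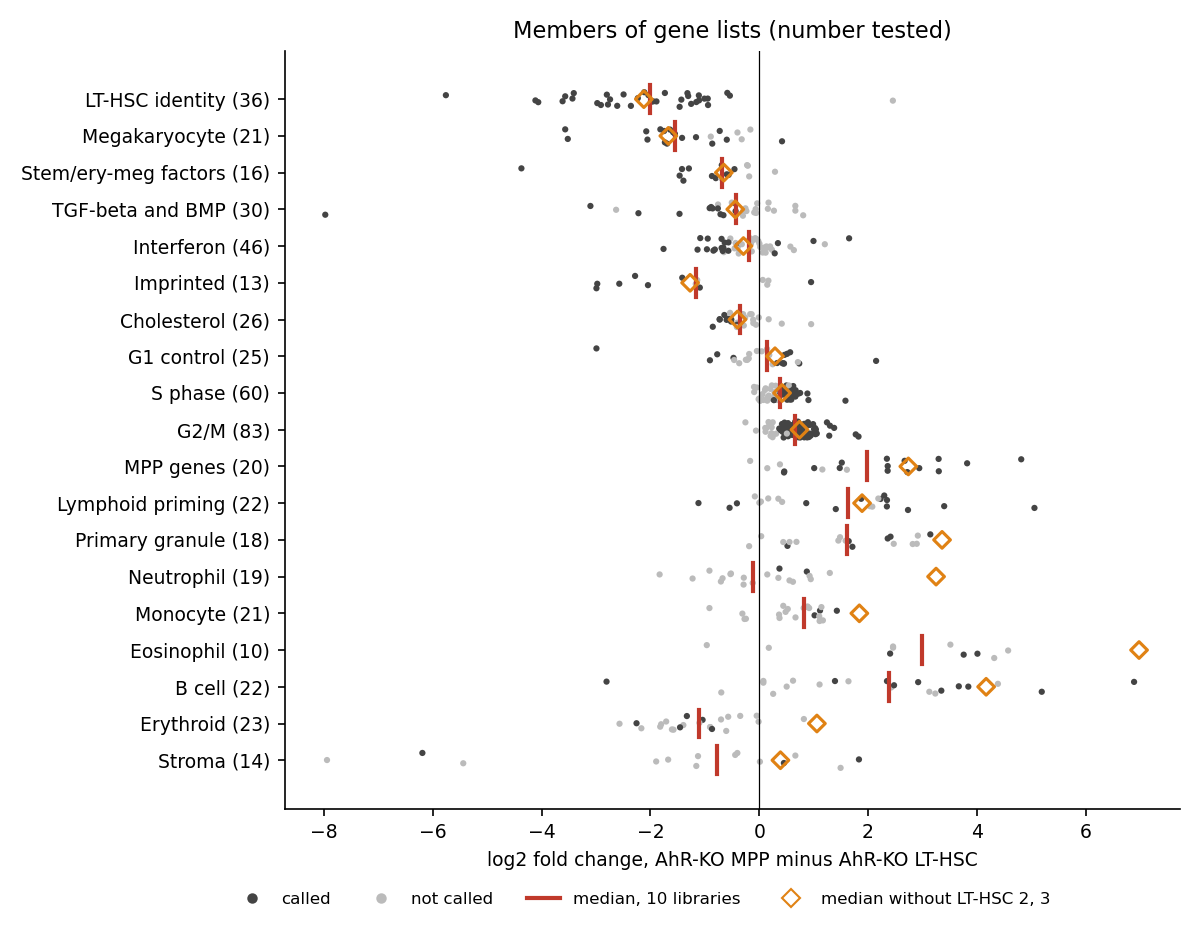
Log2 fold change, AhR-KO MPP minus LT-HSC, of each tested member (points) of 19 gene lists, with the list's median over all 10 libraries (red bar) and without LT-HSC 2 and 3 (open diamond). The diamond leaves the bar in the lists of mature blood cells and stroma and stays near it for the stem cell, megakaryocyte and cell cycle lists.

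Long noncoding RNAs that were called were mostly higher in MPP. Of 791 tested, 155 rose (19.6%) and 42 fell (5.31%), with a median of 0.27, while protein-coding genes had 15.8% higher and 18.9% lower. Among 14 long noncoding RNAs of a list, 10 rose and 1 fell, with a median of 1.09. Firre, which organizes chromatin from the X chromosome (X, 50555744 to 50635321), stood at 13.9, 8.46, 5.19, 12.3 and 6.32 CPM in LT-HSC and at 138, 97.0, 58.0, 118 and 69.5 CPM in MPP (3.37 ± 0.32, adjusted p = 2.82e-05). Neat1, the scaffold of paraspeckles (chromosome 19, 5824708 to 5845478), stood at 14.5, 10.7, 5.62, 10.7 and 5.53 CPM in LT-HSC and at 71.4, 63.2, 38.5, 50.7 and 31.8 CPM in MPP, and rose by 2.43 ± 0.30. For both, MPP 3 and 5 were the lowest of their group and no library overlapped. Xist rose by 1.95 ± 0.24, and all libraries expressed it. The length of protein-coding transcripts moved with the direction of change, since, of 4 equal groups by exon length, 17% of the shortest genes rose and 13.6% fell, against 12.6% and 24.5% of the longest. The part of length in these results was not tested.

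The AhR-KO difference was set against the same difference in WT in 1 fit of all 20 libraries. In that fit 4041 genes were called between MPP and LT-HSC in AhR-KO and 3876 in WT. Both calls were shared by 2538 genes, 62.8% of the first and 65.5% of the second, and 2536 of these had the same direction. Across the 11880 genes averaging 5 CPM or more, the 2 differences had a Pearson correlation of 0.824, which describes genes of 1 fit that share its scaling and are not independent. edgeR called no gene of 17416 as differing between the genotypes (0%, smallest adjusted p 0.296). An unadjusted p under 0.05 was reached by 1125 genes, where 871 would do so if no gene differed. With other tools, 51 genes were called by DESeq2, 30 of them with the more positive difference in AhR-KO, and 18 by limma voom, all of that sign. WT LT-HSC 1 stood apart from its group, with 0.354% of counts from the mitochondrial genome against 0.973 to 1.17%, and without it edgeR also called none.

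Single genes are therefore given as values side by side. Aurka differed between MPP and LT-HSC by 0.68 ± 0.24 in AhR-KO and 0.75 ± 0.24 in WT, and the difference of these was -0.07 ± 0.33. For Cdk1 it was -0.08 ± 0.17, for Ccnb1 -0.28 ± 0.38 and for Plk1 -0.41 ± 0.37. The median over the mitotic list was 0.68 in AhR-KO and 0.85 in WT, and over the stem cell genes -2.01 in both. For Ahr itself the 2 differences were -0.57 ± 0.24 and -1.43 ± 0.24 (adjusted p = 0.701 for the contrast between them), for Ly6a -0.52 ± 0.18 and 0.25 ± 0.18 (0.598), for Procr -1.23 ± 0.15 and -1.84 ± 0.15 (0.598), and for Vwf -3.55 ± 0.54 and -1.79 ± 0.50 (0.710).

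The 3 genes with the smallest p for a departure from WT did not pass the adjustment. Reep2, of the endoplasmic reticulum, differed by -2.59 ± 0.18 in AhR-KO and -1.34 ± 0.17 in WT. Acap1, an ARF GTPase activator of recycling endosomes, differed by 1.07 ± 0.10 and 0.39 ± 0.09, and Sfxn4, a mitochondrial protein, by 1.27 ± 0.17 and 0.06 ± 0.17. In AhR-KO, Acap1 stood at 185, 182, 184, 230 and 171 CPM in LT-HSC and at 420, 420, 354, 430 and 343 CPM in MPP. The noncoding RNAs Neat1 and Mir17hg differed by 2.46 ± 0.41 and 1.97 ± 0.37 in AhR-KO and by 0.87 ± 0.39 and 0.36 ± 0.36 in WT, with adjusted p of 0.598 and 0.553 for the contrast.

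**Figure D5:**
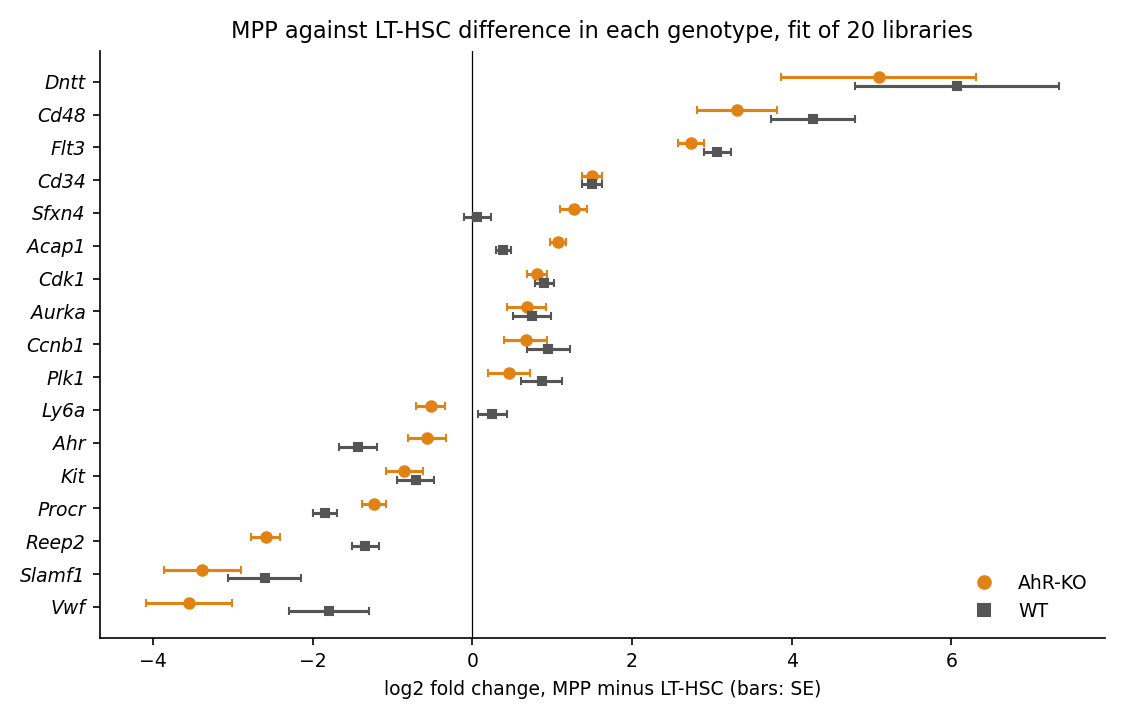
Log2 fold change, MPP minus LT-HSC, in AhR-KO (circles) and WT (squares) from the fit of 20 libraries, with bars for the standard error. For the cell cycle genes, AhR-KO minus WT was -0.07 (Aurka) to -0.41 (Plk1). Reep2, Acap1 and Sfxn4, at the smallest p, lie apart by 0.68 to 1.25 without passing the adjusted threshold. Other plotted genes lie as far apart and did not pass either, such as Dntt (-0.98 ± 1.52) and Ahr (0.87 ± 0.34).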

How the data were processed

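RNA sequencing counts of 10 AhR-KO libraries were compared, 5 of MPP and 5 of LT-HSC, with 10 WT libraries for the test of departure. The authors deposited raw counts per gene symbol in 2 tables, joined by row. Reads had been trimmed, aligned and counted per gene; per the submitters' processing notes the tools were featureCounts (Subread 1.5.0p3), STAR 2.5.2b, Trimmomatic 0.36 and DESeq2 1.12.4, with the build GRCm38.p5. Settings are not stated there. A passage of the labels' protocols speaks of DC samples, which are not these cells. Reads from overlapping or antisense genes cannot be told apart without strand, and 26 symbols had been turned into dates and were kept.

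Genes passing filterByExpr were scaled by TMM and tested with edgeR 4.0.16 in R 4.3.3 (robust quasi-likelihood, two-sided, Benjamini-Hochberg over all genes tested, called at an adjusted p under 0.05), tested on simulated data. The SE is the log2 fold change over the square root of F. CPM use TMM-scaled totals. The biological coefficient of variation was 27.87% in the AhR-KO fit, so that spread between libraries rather than depth limits most values, and intervals cover counting error only. DESeq2 1.42.0 and limma 3.58.1 were alternatives, with other scaling, filters and libraries left out. The members and 48 gene lists were chosen with earlier results of these data known, and lists got no test. Named were 12 fixed genes, the 12 highest and 12 lowest called with and without LT-HSC 2 and 3 at a mean of 5 CPM or more (no predicted genes, pseudogenes or receptor segments), up to 4 called members of each list by p, and the 3 smallest p for departure from WT. Coordinates are from GENCODE M21, promoters from RefSeq (GRCm38.p6). Some genes that this rule names are not reported here.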

Additional observations from a re-analysis of the deposited data

Results flagged for a closer look

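Of 166 groups of 5 libraries examined, 94 were for list sums and 72 for a part of the named genes. Of the 166, 11 held a library far from the other 4, where chance gives about 1 in 20. In LT-HSC 3 the summed stromal list stood at 4651 CPM and Col1a2 at 1715 CPM, and Sema3d, an MPP gene, at 0.802 CPM against 0.0608 or less in the others. In LT-HSC 2 the B cell list stood at 2421 CPM against 289 to 872 CPM and Prg3 at 19.8 CPM against 2.62 or less. LT-HSC 7 held Plk2 at 25.2 CPM against 8.71 to 12.1 CPM. MPP 4 had the immediate early list at 1860 CPM against 1362 to 1499 CPM and the mast cell and basophil list at 872 CPM against 1121 to 1220 CPM. MPP 5 had the cholesterol list at 1660 CPM against 1318 to 1400 CPM and Plcl1, a stem cell-enriched gene here, at 1.86 CPM against 0.357 to 0.629 CPM. In MPP 2 Kdr stood at 2.88 CPM against 0.0489 to 0.699 CPM.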

How the results depend on the processing

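The 4903 calls of the AhR-KO comparison stayed within 1.5 times under every alternative run, from 4041 with all 20 libraries in 1 fit to 5622 with DESeq2. Leaving out 1 library at a time gave 4092 to 5458, the highest without MPP 5. A paired analysis with the replicate number as a replicate block, possible for the 8 libraries numbered 1 to 4, called 4679 genes, and the same libraries without the block 4640. Correlations of same-numbered libraries were 0.0321, 0.0912, 0.129 and 0.245, and those of libraries with different numbers ran from -0.222 to 0.155. The highest of all was a same-numbered pair, so that these values do not settle whether the numbers pair the samples. The main comparison was unpaired. Departure from WT was called for 0 genes with the replicate block and in every edgeR alternative, for 51 with DESeq2 and for 18 with limma voom, and the cause was not tested. Of 189 named genes called, 152 kept their call under all alternatives that tested them, and none changed sign. Without LT-HSC 2 and 3, added to those already given, the list of adhesion genes had a median of 0.00761 and the stromal list 0.394, and 0.392 with MPP 5 also left out, an alternative chosen after seeing the data. Leaving out 1 library at a time moved the stromal median between -1.41 (without LT-HSC 4) and 0.00523 (without LT-HSC 3). The median of G1 regulators was -0.0221 in libraries 1 to 4, that of immediate early genes 0.0444 with limma voom, that of AHR targets -0.0223 without a filter and -0.0264 with at least 5 CPM in 5 libraries, and that of the sex genes -0.446 without a filter, where Xist was the single gene tested in the main comparison. Values under 1 CPM rest on few reads.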

Other observations

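Several gene families had called members in mostly 1 direction between AhR-KO MPP and LT-HSC. Some members, among them Snhg1 and Gbp2, also belong to the lists above. The families were picked after their values were seen, so that their counts are descriptions. Over all tested genes 14.8% were higher in MPP and 15.5% lower. Of 58 histone genes tested, 35 were higher in MPP and none lower (median log2 fold change 0.67), and without LT-HSC 2 and 3, 20 were. Hist1h1b, a linker histone, had a log2 fold change of 1.45 ± 0.48, and many core histone genes are near-identical copies whose counts are uncertain. The libraries were made from poly(A) RNA, so that these counts do not measure all histone RNA. Many stood at few CPM, such as Hist1h4a at means of 1.638 in LT-HSC and 3.084 in MPP. All 7 called of 11 SRSF splicing factors were higher, with Srsf5 at 1.32 ± 0.16 and Srsf7 at 0.90 ± 0.10. Of 11 host genes of small nucleolar RNAs (Snhg), 9 were higher, with Snhg20 at 3.04 ± 0.35 and Snhg5 at 2.18 ± 0.25. Of 18 Rad genes, most of DNA repair, 10 were higher, with Rad54b at 1.6 ± 0.17 and Rad51ap1 at 1.17 ± 0.17. Without LT-HSC 2 and 3, 8 Snhg and 9 Rad genes were higher.

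In the other direction, 6 of 8 Frizzled receptors of Wnt ligands were lower in MPP, with Fzd4 at -3.11 ± 0.32 and Fzd8 at -1.58 ± 0.25, and 3 of 4 A-type plexins, the semaphorin receptors, with Plxna1 at -1.90 ± 0.42. All 4 tested Serpina3 genes were lower, with Serpina3g falling from a mean of 667 to 283 CPM, and all 5 Tceal genes, with Tceal3 at -2.86 ± 0.50. Of 9 guanylate-binding proteins, 7 were lower, with Gbp8 at -2.0 ± 0.28 and Gbp9 at -1.87 ± 0.31. Of 8 Gimap GTPases, 6 were lower, with Gimap5 at -1.13 ± 0.16, and Gimap7 was higher, at 1.43 ± 0.23. Of 7 STAT factors, 5 were lower, with Stat5a at -0.61 ± 0.12. Of 12 genes with Exoc symbols, 8 were lower, with Exoc6b at -1.42 ± 0.19. These 8 include the EXOC3-like genes Exoc3l, Exoc3l2 and Exoc3l4, so that the count is not one of exocyst subunits alone. Without LT-HSC 2 and 3, 5 Frizzled, 5 Gimap and 5 Exoc genes were lower.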
